A study of Rattus norvegicus with 7 samples.

Results

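The amyloid precursor family and the genes that process it were followed here as 9 genes, chosen by name from the platform annotation of an Illumina rat Ref-12 expression array: *App*, *Aplp1*, *Aplp2*, *Bace1*, *Psen2*, *Psenen*, *Ncstn*, *Apba1* and *Apbb1*. They are 9 of the 13337 genes named on the array and are represented by 10 of its 22523 probes, 2 for *Aplp2* and 1 for each other gene. The RNA had been co-purified from extracts of Sprague-Dawley rat cortical neurons, prepared at embryonic day 18 and kept 9 days in culture, by RNP immunoprecipitation (RIP). A polyclonal antibody against TRF2-S, the short cytoplasmic splice form of the telomere protein TRF2, was used for 2 arrays and rabbit IgG for 5, so the IgG arrays measure the RNA that sticks without the specific antibody. No treatment is labelled for any group, and no knockdown or input RNA array was analysed here. The question is which transcripts are more abundant in the TRF2-S precipitate than in the IgG precipitate.

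APP and its relatives APLP1 and APLP2 are membrane-spanning proteins with a large outer part and a short cytoplasmic tail. Alpha- or beta-secretase (BACE1) sheds the outer part, and gamma-secretase, a complex of a presenilin, nicastrin (*Ncstn*), APH-1 and PEN-2 (*Psenen*), cuts the remaining stub inside the membrane, which for APP after BACE1 cleavage releases amyloid-beta. Adaptor proteins such as Fe65 (*Apbb1*) and Mint1 (*Apba1*) bind the cytoplasmic tail. In cortical neurons APP travels along axons and collects at synapses, and APLP1 is found mainly in neurons.

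The 7 arrays did not fall simply by antibody. IgG1 and IgG2 form a pair of control arrays, and the other controls carry the names IgG3, IgG3_0 and IgG3_1x, called the IgG3-named arrays here and listed in that order throughout. The labels do not say whether these 3 hold separate RNA, so the p-values may measure technical spread in part. Over the 9187 probes tested, Pearson's r of the log2 signal with a TRF2-S array was 0.977 to 0.989 for IgG1 and IgG2. It was 0.875 to 0.926 for the IgG3-named arrays. Within the sets, r was 0.9986 for IgG3 with IgG3_1x, and 0.979 and 0.984 for IgG3_0 with IgG3 and IgG3_1x. It was 0.991 for IgG1 with IgG2 and 0.989 between the TRF2-S arrays. The mean signal over all probes on the array was 155 to 216 on IgG1, IgG2 and the TRF2-S arrays and 298 to 608 on the IgG3-named arrays. Each member is therefore given against all 5 IgG arrays and against IgG1 and IgG2 alone. Values are log2 signals after Z-score scaling of each array to a common mean of 6.98 and SD of 1.21. Folds are taken on this scale and are not ratios of the deposited signals. A probe counts as detected on an array where its detection p, set against negative control beads, is under 0.02, and the 9187 probes detected on at least 2 arrays were tested with limma.

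Of the 9 genes, 5 were tested: *App*, *Aplp1*, *Psen2*, *Psenen* and *Apbb1*. The other 4 genes, with 5 probes, were not above background on any array, and their detection p ranged from 0.0449 to 0.995. No member passed an adjusted p of 0.05 (limma, Benjamini-Hochberg over all tested probes) in the TRF2-S RIP against either set of IgG arrays. With all 5 IgG arrays as controls, 0.0327% of tested probes were called higher and 0% lower, and with IgG1 and IgG2 alone 0.142% were called higher and 0.0109% lower. *Aplp1* and *Psenen* differed from the other tested members in the order of the arrays, with TRF2-S values above both of IgG1 and IgG2 and below all IgG3-named arrays. The same order held for 5.96% of all tested probes.

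**Figure D1:**
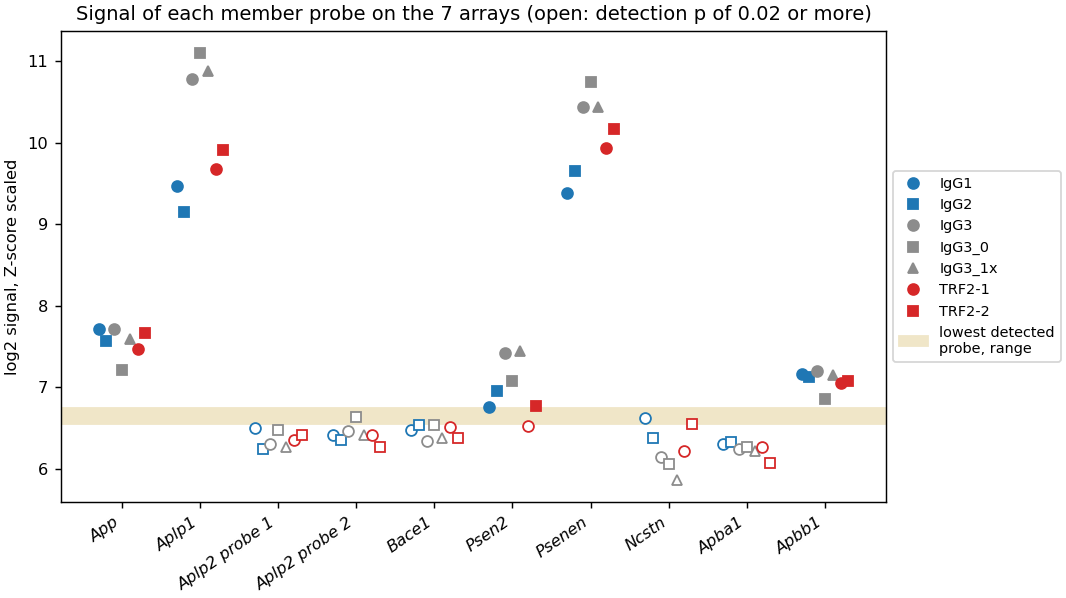
Log2 signal after Z-score scaling (vertical axis) of the 10 member probes (horizontal axis) on each of the 7 arrays, with filled points where the probe was detected and open points where it was not. The shaded band runs over the arrays' lowest detected probes. *Aplp1* and *Psenen* spread from 9.15 to 11.10 and from 9.38 to 10.74, while the probes of *Aplp2*, *Bace1*, *Ncstn* and *Apba1* are open on all arrays.

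In the precursor family, *Aplp1* was detected on all 7 arrays. The deposited signal was 405.9 and 746.7 with TRF2-S, 394.1 and 416.0 on IgG1 and IgG2, and 6240.6, 2216.4 and 5523.0 on the IgG3-named arrays. After scaling, its log2 signal was 9.47 and 9.15 on IgG1 and IgG2, 9.68 and 9.91 with TRF2-S, and 10.78, 11.10 and 10.88 on the IgG3-named arrays. The TRF2-S arrays thus lay above IgG1 and IgG2 and below the IgG3-named arrays, and the groups in this order did not overlap.

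*Aplp1* had a mean of 9.80 ± 0.17 (SD, n = 2) in the TRF2-S RIP and 10.28 ± 0.90 (SD, n = 5) in all 5 IgG arrays. The log2 difference was -0.48 with a standard error of 0.56 and a 95% interval from -1.79 to 0.82 (limma adjusted p = 0.60). Relative to IgG1 and IgG2 (9.31 ± 0.22, SD, n = 2) the sign turned, with a log2 difference of 0.48, a standard error of 0.15 and a 95% interval from 0.14 to 0.83, a fold of 1.40. The limma adjusted p was 0.26, and the difference ranked 222 from the top among 9187 probes. The study placed *Aplp1* in a panel for RT-qPCR on the basis of these arrays and reported its mRNA as enriched there. It also reported that an *Aplp1* fragment bound recombinant TRF2-S, a direct binding that arrays do not measure. The study further reported that TRF2-S RIP from mouse cerebellum enriched *Aplp1* in *Fmr1* knockouts but not in wild type. Axonal *Aplp1* mRNA was reported to rise with added TRF2-S and to fall when TRF2-S was silenced. Because the panel was drawn from these arrays, the position of *Aplp1* here is no independent evidence. The call was made in the comparison with IgG1 and IgG2 when the 4 arrays were quantile normalized alone, an alternative chosen after seeing the data (log2 difference 0.45, limma adjusted p = 0.039), and when IgG1 was left out (0.64, limma adjusted p = 0.049), a setting that leaves a single IgG array and called 298 probes in place of 14. Without IgG2 the difference was 0.32 (limma adjusted p = 0.94), and without TRF2-S array 1 or 2 it was 0.60 or 0.36 (limma adjusted p = 0.37 and 0.40). Neuron markers did not all move with *Aplp1*. The summed scaled signal of 5 of 6, without *Gap43*, was 2349 to 2773 on IgG1 and IgG2. It was 3003 to 3326 with TRF2-S and 5107 to 6837 on the IgG3-named arrays. With *Gap43*, which was left out after the values were seen, the sum was lowest on the IgG3-named arrays (9643 to 18570). Of the 5, *Map2* (-0.26) and *Rbfox3* (-0.16) also stood lower on the IgG3-named arrays than on IgG1 and IgG2. The part of neuron markers in the result was not tested.

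*App*, the precursor of amyloid-beta itself, was detected on all 7 arrays as well. The deposited signal was 126.5 and 169.0 with TRF2-S, 144.7 and 153.6 on IgG1 and IgG2, and 376.5, 169.2 and 297.1 on the IgG3-named arrays. Its log2 signal was 7.71 and 7.57 on IgG1 and IgG2, 7.72, 7.21 and 7.59 on the IgG3-named arrays, and 7.47 and 7.67 with TRF2-S. IgG3_0 was the lowest array and the groups overlapped. The log2 difference was 0.01 against all 5 IgG arrays (95% interval -0.37 to 0.39, limma adjusted p = 0.98) and -0.07 against IgG1 and IgG2 (95% interval -0.36 to 0.21, limma adjusted p = 0.89). The sign of the first value changed with the scaling (-0.25 with median centring), and relative to the median of all tested probes it was then 0.09.

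*Aplp2*, the more widely expressed relative, was not above background with either probe. The signal ran from 66.5 to 104.3 on its first probe and from 67.0 to 118.5 on its second, with detection p-values of at least 0.185 and 0.0449. No fold is given for it, and the difference between *Aplp1* and *Aplp2* could not be formed.

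The contrast of *Aplp1* with *App* was taken within each array, which removes any shift that an array gives to both probes alike. The probes differ in how brightly they report a given amount of RNA, so the difference is read only for its change between groups. *Aplp1* minus *App* was 1.76 and 1.58 on IgG1 and IgG2, 2.21 and 2.25 with TRF2-S, and 3.06, 3.89 and 3.29 on the IgG3-named arrays. The 3 sets of arrays did not overlap, in the same order as for *Aplp1* alone. Relative to all 5 IgG arrays (2.72 ± 1.00, SD, n = 5), the TRF2-S mean of 2.23 ± 0.03 (SD, n = 2) was 0.49 lower, with an exact two-sided permutation p of 0.571, where 0.0952 is the smallest that 2 against 5 arrays can give. Set against IgG1 and IgG2 (1.67 ± 0.13, SD, n = 2), it was 0.55 higher, with an exact two-sided permutation p of 0.333, the smallest that a permutation of 2 against 2 arrays can give, so this test cannot reach 0.05. Adjusted over these 2 tests, both exact p-values were 0.571. *Aplp1* minus *App* was thus higher with TRF2-S than on IgG1 and IgG2, and lower than on the IgG3-named arrays. With 2 arrays in each group and a permutation test that could not pass, no unequal change of the 2 genes is concluded. The share of other probe pairs with this order was not counted.

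**Figure D2:**
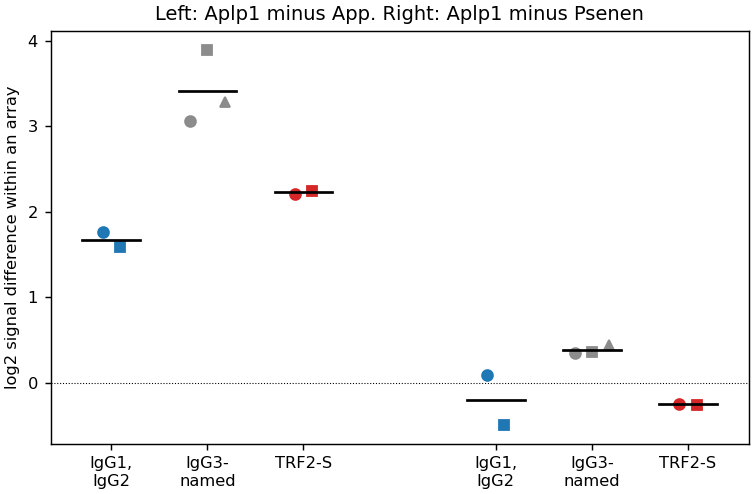
Difference in log2 signal within each array (vertical axis), *Aplp1* minus *App* on the left and *Aplp1* minus *Psenen* on the right, for IgG1 and IgG2 (blue circle and square), IgG3, IgG3_0 and IgG3_1x (grey circle, square and triangle) and TRF2-S arrays 1 and 2 (red circle and square), with a bar at each mean. On the left the TRF2-S arrays, at 2.21 and 2.25, lie between the IgG1 and IgG2 values and those of the IgG3-named arrays. On the right they lie at -0.25 and -0.26, within the range of IgG1 and IgG2.

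Among the gamma-secretase subunits, *Psenen*, which encodes PEN-2, the small subunit needed for maturation of the complex, behaved most like *Aplp1* of the members. The deposited signal was 463.9 and 885.1 with TRF2-S, 374.1 and 567.4 on IgG1 and IgG2, and 4556.6, 1749.0 and 3719.7 on the IgG3-named arrays. Its log2 signal was 9.38 and 9.65 on IgG1 and IgG2, 9.93 and 10.17 with TRF2-S, and 10.44, 10.74 and 10.44 on the IgG3-named arrays. The order of the groups was that of *Aplp1*, again with no overlap.

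Against IgG1 and IgG2 (9.51 ± 0.19, SD, n = 2), the TRF2-S mean of *Psenen* of 10.05 ± 0.17 (SD, n = 2) was 0.54 higher on the log2 scale, a fold of 1.45. The standard error was 0.14, the 95% interval 0.21 to 0.87 and the limma adjusted p 0.21. The difference ranked 159 from the top among 9187 probes. Against all 5 IgG arrays the log2 difference was -0.08 with a standard error of 0.37 (limma adjusted p = 0.91), a sign that turned when the IgG3-named arrays were averaged into 1 array (0.20). *Psenen* passed the threshold against IgG1 and IgG2 after quantile normalization of all 7 arrays (0.50, limma adjusted p = 0.039), where *Aplp1* did not pass, and after that of the 4 arrays alone (0.51, limma adjusted p = 0.013). Those settings called 357 and 554 probes in place of 14, with 61.9% and 57.4% of the calls higher in place of 92.9%.

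*Aplp1* minus *Psenen*, a difference chosen after the values were seen and described with no test, was -0.25 and -0.26 with TRF2-S, 0.09 and -0.49 on IgG1 and IgG2, and 0.34, 0.36 and 0.44 on the IgG3-named arrays. The TRF2-S arrays lay inside the range of IgG1 and IgG2, and the IgG3-named arrays lay above all others.

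*Psen2*, a presenilin and so a catalytic subunit, had its lowest value with TRF2-S. The deposited signal was 76.6 and 93.4 with TRF2-S, 84.4 and 104.4 on IgG1 and IgG2, and 287.1, 155.2 and 259.8 on the IgG3-named arrays. Its log2 signal was 6.76 and 6.95 on IgG1 and IgG2, 7.42, 7.08 and 7.44 on the IgG3-named arrays, and 6.52 and 6.77 with TRF2-S. TRF2-S array 1 was the lowest and the only array on which the probe was not detected, and TRF2-S array 2 lay just above IgG1. The log2 difference was -0.49 against all 5 IgG arrays (standard error 0.21, 95% interval -0.98 to 0.004, limma adjusted p = 0.41) and -0.21 against IgG1 and IgG2 (standard error 0.13, limma adjusted p = 0.59). Neither passed. With background correction (neqc) the values were -1.23 and -0.71 (limma adjusted p = 0.24 and 0.33), and with an array left out the value against IgG1 and IgG2 ran from -0.34 without TRF2-S array 2 to -0.12 without IgG2 and -0.09 without TRF2-S array 1.

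Nicastrin's gene *Ncstn*, which encodes the subunit thought to receive substrates, was not above background, with signals of 63.4 to 88.5 and a lowest detection p of 0.0558. *Bace1*, which encodes the beta-secretase, gave signals of 71.8 to 108.3 and a lowest detection p of 0.108. No direction is given for either.

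Of the tail adaptors, *Apbb1* was detected on all 7 arrays. The deposited signal was 101.4 and 114.6 with TRF2-S, 105.8 and 116.2 on IgG1 and IgG2, and 232.5, 134.0 and 199.0 on the IgG3-named arrays. Its log2 signal was 7.16 and 7.12 on IgG1 and IgG2, 7.19, 6.85 and 7.14 on the IgG3-named arrays, and 7.05 and 7.08 with TRF2-S. Both TRF2-S arrays lay just below IgG1 and IgG2, and IgG3_0 was lowest. The log2 difference was -0.03 against all 5 IgG arrays (95% interval -0.32 to 0.26, limma adjusted p = 0.89) and -0.08 against IgG1 and IgG2 (95% interval -0.32 to 0.17, limma adjusted p = 0.85). *Apba1* was not above background, with signals of 58.9 to 96.7 and a lowest detection p of 0.553.

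**Figure D3:**
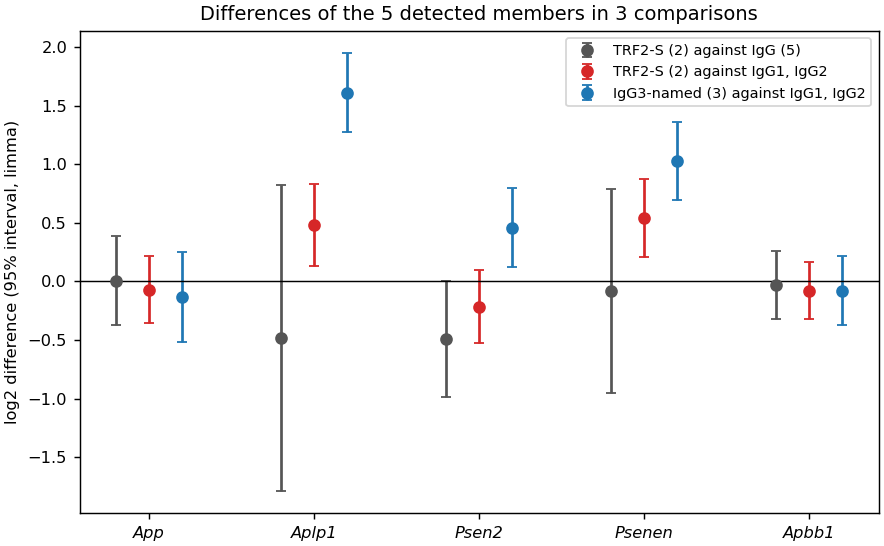
Log2 differences (points, vertical axis) with 95% limma intervals (bars) of the 5 tested members in 3 comparisons, with the number of arrays in each group in the key. For *Aplp1* the interval against IgG1 and IgG2 runs from 0.14 to 0.83 and that against all 5 IgG arrays from -1.79 to 0.82, and the IgG3-named arrays stand 1.61 above IgG1 and IgG2.

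The same members were then compared between the IgG arrays themselves, where no TRF2-S antibody was present. The IgG3-named arrays entered as replicates although they may not hold separate RNA, so these p-values may measure technical spread in part. The IgG3-named arrays stood above IgG1 and IgG2 by 1.61 for *Aplp1* (standard error 0.14, a fold of 3.05, limma adjusted p = 0.00038, rank 23 of 9187), by 1.03 for *Psenen* (standard error 0.14, a fold of 2.04, limma adjusted p = 0.0018) and by 0.46 for *Psen2* (standard error 0.14, limma adjusted p = 0.037). *App* and *Apbb1* differed by -0.13 and -0.08 (limma adjusted p = 0.52 and 0.63). So 3 of 5 tested members were called higher and 0 lower, against 27.7% and 17.7% of all tested probes. The *Psen2* call was lost without IgG1, IgG2, IgG3 or IgG3_1x (limma adjusted p of 0.085 to 0.22). Median centring of the arrays in place of Z-scores called 30 probes in place of 4170 and ended all 3 calls (limma adjusted p = 0.14 for *Aplp1* and *Psenen* and 0.16 for *Psen2*) although the differences grew to 2.87, 2.23 and 0.75, or 2.33, 1.68 and 0.20 relative to the median of all tested probes, with 0% of calls higher in place of 61%, while without normalization 98.5% were higher. The difference of *Aplp1* between sets of IgG arrays was thus larger than its difference between TRF2-S and either set.

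Counts over the members were read against all tested probes. At an unadjusted limma p under 0.05, 0 of 5 tested members were higher and 0 lower against all 5 IgG arrays, where 6.06% of probes were higher and 6.06% lower. With IgG1 and IgG2 as controls, 2 were higher, *Aplp1* and *Psenen*, and 0 lower, where 6.51% were higher and 6.02% lower. Both TRF2-S arrays lay above IgG1 and IgG2 for these 2 genes, as for 22.5% of probes, and below all IgG3-named arrays as well, as for 5.96%. All IgG3-named arrays lay above IgG1 and IgG2 for *Aplp1*, *Psenen* and *Psen2*, as for 40.4% of probes.

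The z-ratio, which the study used as one measure of enrichment, takes the difference between mean Z-scores and divides it by its own SD across all 22523 probes. Against all 5 IgG arrays it was -1.74 for *Aplp1*, -1.76 for *Psen2*, -0.28 for *Psenen* and 0.03 for *App*, and none of the 10 member probes exceeded 1.8, where 3.53% of probes did. It was 3.17 for *Aplp1* and 3.52 for *Psenen* against IgG1 and IgG2, the 2 of 10 member probes above 1.8, where 3.29% of probes were. The remaining 8 probes lay between -1.40 and 0.08 in that comparison. For *Aplp1*, then, the choice of IgG arrays set the sign of the z-ratio.

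A wider list of 64 genes covered the secretases, tail adaptors, trafficking factors, amyloid-beta clearance and other gamma-secretase substrates. A probe carried the name of 53 of them, and 34 were tested. With 5 IgG controls 0 of 34 passed the adjusted threshold, 2 were higher and 2 lower at an unadjusted limma p under 0.05, where 386 and 459 of the 6592 named genes tested were. The median log2 difference was -0.11, beside -0.09 over all named genes, and 11 of 34 list genes, or 32.4%, lay above 0, beside 38.1%. Against IgG1 and IgG2 0 of 34 passed, 3 were higher and 4 lower unadjusted, where 400 and 471 of all named genes were, and the median was -0.05, beside -0.004 over all named genes (12 of 34 list genes above 0, or 35.3%, beside 48.9%).

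Within gamma-secretase the tested subunits lay on both sides of 0. *Psenen* was the highest against IgG1 and IgG2 and *Aph1a*, which encodes the scaffold subunit APH-1A, the lowest. *Aph1a* had log2 signals of 9.95 and 10.10 on IgG1 and IgG2, 9.38 and 9.42 with TRF2-S, and 9.51, 9.40 and 9.48 on the IgG3-named arrays. IgG1 and IgG2 were above all other arrays, a log2 difference of -0.63 for TRF2-S (standard error 0.11, limma adjusted p = 0.11) and of -0.29 against all 5 IgG arrays (limma adjusted p = 0.46), and the IgG3-named arrays differed from IgG1 and IgG2 by -0.57 (limma adjusted p = 0.0044). Between these extremes, *Psen2* stood at -0.21 and *Aph1b*, the alternative APH-1 subunit, at 0.40 (limma adjusted p = 0.49). *Aph1b* stood at 0.95 against all 5 IgG arrays (standard error 0.35, limma adjusted p = 0.41). The IgG3-named arrays were lower for it than IgG1 and IgG2 by a log2 difference of -0.91 (limma adjusted p = 0.0031). Its signal of 6.58 to 6.63 there was near the lowest detected probes of those arrays (6.55 to 6.69). *Aph1b* was detected on 6 of the 7 arrays, so these sizes are uncertain.

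The tail adaptor role was drawn widely and also holds *Kat5*, *Klc1* and *Nae1*, which are not adaptors like Fe65. Of its 9 tested genes, 0 passed in either comparison. In each, 1 of 9, or 11.1%, had a log2 difference above 0, where 38.1% of all named genes did with 5 IgG controls and 48.9% with IgG1 and IgG2 alone. The medians were -0.18 and -0.08, beside -0.09 and -0.004 over all named genes. At an unadjusted limma p under 0.05, 2 in each were lower, where 459 and 471 of the 6592 named genes tested were. They were *Kat5* (-0.54) and *Klc1* (-0.86) with 5 IgG controls, and *Kat5* (-0.39) and *Mapk8ip1* (-0.46) against IgG1 and IgG2. The highest against IgG1 and IgG2 was *Apbb3*, a relative of Fe65, at 0.10 (0.002 against all 5 IgG arrays), and the lowest was *Mapk8ip1*, the JIP1 scaffold that links APP to kinesin, at -0.46 (limma adjusted p = 0.35; -0.30 against all 5 IgG arrays). Both comparisons share the TRF2-S arrays and IgG1 and IgG2, so their counts are not separate results.

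Among trafficking and regulatory genes 13 were tested, with 6 above 0 in each comparison, or 46.2%, beside 38.1% of all named genes with 5 IgG controls and 48.9% with IgG1 and IgG2. *Vps35*, the retromer core subunit, was the highest against IgG1 and IgG2, at 0.34 (limma adjusted p = 0.38), with log2 signals of 8.90 and 8.58 on IgG1 and IgG2, 9.01 and 9.16 with TRF2-S and 9.57 to 9.62 on the IgG3-named arrays. It followed the order of *Aplp1* and *Psenen*, and against all 5 IgG arrays it stood at -0.17. *Itm2c*, which encodes a BRI family protein, was the lowest, at -0.40 (limma adjusted p = 0.42) and -0.25 against all 5 IgG arrays. The tested alpha-secretase, *Adam17*, stood at -0.03 and the tested other substrate, *Notch1*, at -0.10, and with 5 IgG controls at -0.27 and -0.02. *Adam17* was near background, detected on 2 of 7 arrays, and *Notch1* was detected on 6.

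Of the 4 clearance genes tested, *Ide*, the insulin-degrading enzyme, was highest against IgG1 and IgG2, at 0.16 (0.42 against all 5 IgG arrays). It was detected on 4 of the 7 arrays, near background. Lowest was *Apoe*, the main lipid carrier of the brain. *Apoe* had log2 signals of 12.08 and 12.01 on IgG1 and IgG2, 11.35 and 11.36 with TRF2-S, and 10.47, 10.83 and 10.50 on the IgG3-named arrays. This is the order of *Aplp1* turned over, with IgG1 and IgG2 at the top. The log2 difference was -0.68 against IgG1 and IgG2 (standard error 0.11, limma adjusted p = 0.085) and 0.18 against all 5 IgG arrays (limma adjusted p = 0.83). *Apoe* is made mostly by astrocytes, and the astrocyte markers *Gfap*, *Slc1a3* and *S100b* stood at -0.26, -0.32 and -0.37 with TRF2-S against IgG1 and IgG2. They did not all follow *Apoe* on the IgG3-named arrays, where *Apoe* stood at -1.44 against IgG1 and IgG2. There *Gfap* was called higher (0.47, limma adjusted p = 0.012) and *S100b* lower (-0.96, limma adjusted p = 0.0041), with *Slc1a3* at -0.06 (limma adjusted p = 0.64).

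**Figure D4:**
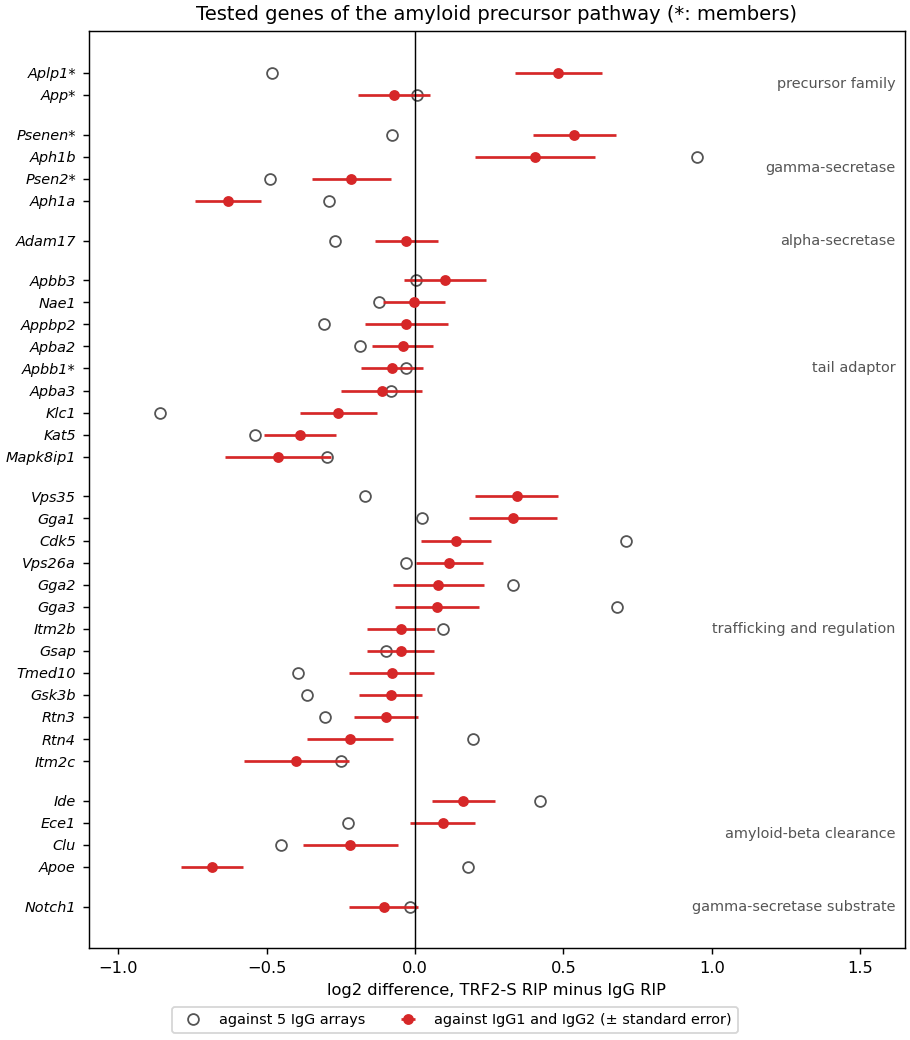
Log2 differences between the TRF2-S RIP and the IgG RIP (horizontal axis) of the 34 tested genes of the wider list, grouped by role, against IgG1 and IgG2 (red, with the standard error) and against all 5 IgG arrays (open grey). *Psenen*, at 0.54, and *Aplp1*, at 0.48, are the rightmost red points, and *Apoe*, at -0.68, and *Aph1a*, at -0.63, the leftmost.

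Marker genes of cell types were read in the precipitated RNA, which does not give the cell composition of the culture without input RNA. All 6 neuron markers were tested (*Tubb3*, *Map2*, *Snap25*, *Syp*, *Rbfox3* and *Gap43*), with summed scaled signals of 18660 to 28440 on the TRF2-S arrays, 20190 to 26690 on IgG1 and IgG2 and 9643 to 18570 on the IgG3-named arrays. The largest term of this sum is *Gap43*, which was lower on the IgG3-named arrays than on IgG1 and IgG2 by a log2 difference of -1.66 (limma adjusted p = 0.014). The same comparison called *Tubb3* (1.44), *Snap25* (0.98) and *Syp* (1.33) higher (limma adjusted p of at most 0.0048). Against IgG1 and IgG2 the TRF2-S RIP had 3 of 6 neuron markers higher at an unadjusted limma p under 0.05. Of all 6592 named genes tested, 400 were. The 3 markers were *Tubb3* (0.48), *Map2* (0.27) and *Snap25* (0.29), while the other 3 lay below 0 and 0 passed after adjustment. Of 5 astrocyte markers 3 were tested, with sums of 1541 to 1898 on the TRF2-S arrays, 2068 to 2198 on IgG1 and IgG2 and 1988 to 2096 on the IgG3-named arrays, and *Aqp4* was not above background. Of the microglia markers only *Aif1* was tested, with a scaled signal of 95.4 to 138 over the 7 arrays, while *Cx3cr1*, *C1qa* and *Itgam* were not above background. Of the oligodendrocyte markers *Mbp* was tested, with a scaled signal of 93.2 to 104.6, and *Mog* and *Olig2* were not above background. The part of astrocyte RNA in the lower *Apoe* value was not tested. In RNA precipitated from a whole culture, fewer cells of a type, less RNA per cell and less RNA precipitated cannot be told apart.

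The genes most like *Aplp1* over the 7 arrays were sought among 6591 other named genes by Pearson's r, as a description. They were *Snap25* (0.998), *Lix1l* (0.995), *Hdac2* (0.994), *Pafah1b2* (0.990) and *Rab7a* (0.988). *Snap25*, which encodes a presynaptic fusion protein, had log2 signals of 9.74 and 9.65 on IgG1 and IgG2, 9.93 and 10.05 with TRF2-S, and 10.57, 10.78 and 10.66 on the IgG3-named arrays. The 7 points share the gap between the IgG3-named arrays and the rest, and 522 genes, or 7.92%, had an r over 0.9. *Psenen* had an r of 0.93 (rank 275), *Psen2* 0.72, *Apbb1* -0.34 and *App* -0.36. Over the 4 arrays without the IgG3-named ones r was 0.74 for *Psenen*, and the sign turned for *Psen2* (-0.61) and *App* (0.11).

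*Aplp1* and *Psenen* are also neighbours. In RefSeq's rat annotation of the GRCr8 assembly they lie on the same chromosome with 9 annotated genes between them, 8 of them protein coding and 3 tested here. These 3 stood near 0 against IgG1 and IgG2, *Prodh2* at -0.04, *Hspb6* at -0.01 and *Lin37* at -0.003 (limma adjusted p of at least 0.94). With 5 IgG controls they stood at 0.20, -0.14 and -0.35 (limma adjusted p of at least 0.43). None of these 3 had both TRF2-S arrays above IgG1 and IgG2. On the IgG3-named arrays *Lin37* was called higher than on IgG1 and IgG2 (0.57, limma adjusted p = 0.0090), as *Aplp1* and *Psenen* were. *Prodh2* was called lower there (-0.41, limma adjusted p = 0.034), and *Hspb6* stood at 0.22 (limma adjusted p = 0.16). Whether the shared position matters was not tested.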

How the data were processed

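RNA of 7 RIP samples, 2 with TRF2-S antibody and 5 with rabbit IgG, was hybridized to 1-colour Illumina arrays. The authors deposited a linear signal intensity per probe, not normalized between arrays, a detection p-value per probe, and a score per probe, which the log intensities give back as a Z-score per array to within 5e-10. Its scale, centring and direction are known and the base of its log is not. The median deposited score per array was -0.394, -0.407, -0.474, -0.397 and -0.467 on IgG1, IgG2, IgG3, IgG3_0 and IgG3_1x, and -0.378 and -0.423 on TRF2-S arrays 1 and 2. The methods name BeadStudio 1.5 and the submitters' processing notes GenomeStudio 2011.1. Background handling is not given in the sources used here, and none was subtracted here. The number of arrays limits the precision.

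Log2 intensities were Z-scored per array, put back on a common log2 scale, filtered (detection p under 0.02 on at least 2 arrays) and fitted per comparison in R 4.3.3 with the lmFit and eBayes functions of limma 3.58.1 (Benjamini-Hochberg adjustment over 9187 probes, threshold 0.05). The code was tested on simulated data. Within-array differences were tested by exact permutation of arrays. Alternatives were other scalings (quantile, median centring, none, neqc), filters, blocks, a joint fit, the methods' analysis of variance by group, and leaving out each array. Probe names came from GEO's platform annotation, where 13793 probes carry a symbol and 8730 carry none, and all 9 members matched RefSeq by gene ID. Each gene is given by its brightest tested probe. Genes outside the 9 members are named where they are highest or lowest in their role against IgG1 and IgG2. Exceptions are the cell type markers, the 5 genes most like *Aplp1* and the genes between *Aplp1* and *Psenen*. *Aph1b*, *Kat5*, *Klc1* and *Nae1* were named after their values were seen. The sum of neuron markers without *Gap43* was added after the values were seen. The members and lists were chosen with earlier results of these data known. Probe sequences were not used here.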

Additional observations from a re-analysis of the deposited data

Results flagged for a closer look

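The log2 signal of *Apbb1* on the 5 IgG arrays held an outlying array. IgG3_0 stood at 6.85 while the other 4 lay between 7.12 and 7.19, and its gap to the nearest array made up 0.799 of the group's range, above Dixon's 95% critical value of 0.71 for 5 arrays. Chance flags about 1 in 20 groups at each test, and 6 were tested, so a single flag among them is no rare event. IgG3_0 was also the lowest array for *App*, at 7.21, where the gap did not pass. The cause was not tested.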

How the results depend on the processing

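Counts of called probes moved with the processing. Against all 5 IgG arrays 3 were called, with 5 after quantile normalization, 10 with neqc, 1 with the IgG3-named arrays as a random block, 0 with them averaged, with median centring, without normalization and for probes detected on all 7 arrays, and 0 to 1 with an array left out. Against IgG1 and IgG2 14 were called, with 357 after quantile normalization, 554 after that of the 4 arrays alone, 36 with no filter, 39 with 3 groups in one fit, 8 with neqc, 0 with median centring, without normalization and by the methods' analysis of variance, and 0 to 298 with an array left out (298 without IgG1, 46 without IgG2 and 0 without either TRF2-S array, where the lone array is assumed to vary like the others). Between IgG3-named arrays and IgG1 and IgG2 4170 were called, with 30 after median centring, 1912 by the analysis of variance and 2014 to 6452 with an array left out (6452 without IgG3_0, 2567 without IgG3_1x, 2237 without IgG2, 2014 without IgG1).

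Replicate numbers 1 and 2 occur in both groups, but nothing in the labels pairs them, and deviations of same-numbered arrays correlated at 0.28. With the replicate block 648 probes were called against IgG1 and IgG2, 52.2% of them higher, *Aplp1* (0.48, limma adjusted p = 0.042) and *Psenen* (0.54, limma adjusted p = 0.011) among them.

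*Aplp1* kept its sign under all alternatives run, from -1.59 to -0.05 against all 5 IgG arrays (limma adjusted p 0.30 to 0.98) and from 0.32 to 0.64 against IgG1 and IgG2 (0.039 to 1). For *Aplp1*, the deposited Z-scores, filters, replicate block, joint fit and analysis of variance leave the difference unchanged by construction. Only the other alternatives bear on its sign. *Aplp1* minus *App* stayed between -1.06 and -0.03 and between 0.47 and 0.64. *App* against all 5 IgG arrays turned to -0.25 with median centring, -0.53 without normalization, -0.028 once the IgG3-named arrays were averaged and -0.020 under the random block, and ranged from -0.091 to 0.11 with an array left out (below 0 without TRF2-S array 2 or IgG3_0). Median centring and no normalization moved the median of all tested probes there to -0.34 and -0.62, and relative to it *App* stood at 0.09 in both. *Psenen* turned to 0.20 once those arrays were averaged and 0.14 under the block, and ranged from -0.27 to 0.075 (above 0 without TRF2-S array 1 or IgG3_0). *App* against IgG1 and IgG2 ranged from -0.17 to 0.027, above 0 without TRF2-S array 1.

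Between IgG arrays, *App* turned to 0.32 with median centring and 0.84 without normalization and ranged from -0.24 to 0.018, and *Apbb1* turned to 0.21 and 0.73 and ranged from -0.14 to 0.027, both above 0 without IgG3_0. Those 2 scalings moved the median of all tested probes to 0.55 and 1.06, and relative to it *App* stood at -0.23 and *Apbb1* at -0.34. After quantile normalization or neqc both were called lower, *App* at -0.39 and -0.64 and *Apbb1* at -0.21 and -0.45. No member had another tested probe, and *Aplp1* minus *Aplp2* gave no value. The cause of these changes was not tested. The dim signal of *Aplp2*, *Bace1*, *Ncstn* and *Apba1* limits what can be said of them.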
